A study of Mus musculus with 3 samples.

Results

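The mitochondrial ribosomal protein genes were followed across 3 populations of mouse CD8 T cells, each measured on 1 array. The members are all genes whose symbol in the platform annotation starts with Mrpl or Mrps followed by a number, on probe sets that carry a single symbol. This rule uses no measured value, but it was chosen with earlier results of these data known. This gave 156 probe sets for 76 of 18194 named genes, 47 named for the large subunit (Mrpl) and 29 for the small subunit (Mrps). Another 4 probe sets name an Mrpl or Mrps gene beside a second gene, and they were not used. For 34 members there was 1 probe set, and the other 42 had up to 8.

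The mitochondrial ribosome translates the few proteins that mitochondrial DNA encodes, all of them core subunits of the respiratory chain and ATP synthase. Its RNAs come from mitochondrial DNA, while all of its proteins are made from nuclear genes in the cytosol and imported. Many of these proteins descend from those of bacterial ribosomes, and others were added in the evolution of mitochondria. T cells that leave quiescence after antigen contact enlarge their mitochondria and need this translation for their respiratory chain.

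The array labelled VILLIN-HA/CL4-TCR and the one labelled Villin-HA + CL4-TCR hold CD8 T cells with a transgenic T cell receptor against hemagglutinin (HA), an influenza virus surface protein, combined with HA under the promoter of villin, a gut epithelial gene. The CL4-TCR array holds CD8 T cells with the same receptor and no HA in its label. The tissue of all 3 is labelled MLN, an abbreviation that the labels do not spell out. The labels give no strain, age or number of pooled animals, and they do not say which HA population was activated and which was regulatory. With 1 array per group there is no spread between samples, so no p-value is given, every difference is one between arrays, and the number of arrays limits the precision.

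Values are MAS5 signals, which sum up the probes of a probe set on a linear scale and give every array the same trimmed mean of 150. All signals under 31.7, the median of all values, were raised to that floor. Each gene is given by the probe set with its highest mean signal. Counted as higher or lower were differences of at least 1 on the log2 scale, which is 2-fold, and measured genes are those over the floor on at least 1 array of the pair. On these probe sets all 76 members lay above the floor on all 3 arrays, while 124 of the 156 probe sets did so and 15 were at or below it on every array.

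The arrays differed in more than the members. The ratio of 3′ to 5′ signal of the Gapdh control probe sets, a measure of how far labelling reached along the RNA, was 46.2 in VILLIN-HA/CL4-TCR, 3.35 in Villin-HA + CL4-TCR and 18.4 in CL4-TCR cells. For the beta-actin control probe sets the ratio was 2.46, 1.8 and 1.98 in the same order, so this control places the arrays much closer together. Summed signals of 4 proliferation markers were 5217, 7824 and 124 in the same order, and those of 4 CD8 T cell markers were 7638, 9398 and 7750. The 7 myeloid and dendritic cell markers summed to 1527, 1857 and 264, and single members differed between the HA arrays, 3 being higher and 3 lower at 2-fold in VILLIN-HA/CL4-TCR than in Villin-HA + CL4-TCR cells. Among them Lyz2, of macrophages and granulocytes, had 817.3, 312.2 and 84.5, and S100a8, of granulocytes, had 12.9, 738.7 and 9.5. In the same order 5 skeletal muscle markers summed to 95.3, 4497 and 93.3, all 5 lying above the floor in Villin-HA + CL4-TCR cells. Of 4 stroma and endothelium markers, which summed to 45.9, 624 and 59.6, 3 lay above the floor on that array. The 3 B cell markers summed to 212, 87.2 and 122, with Ms4a1 at 147.2, 52.5 and 55.8, counted as higher in VILLIN-HA/CL4-TCR cells than in either other population. The 3 epithelium markers summed to 61.8, 116 and 103, with Epcam above the floor on all arrays (48.9, 70.9 and 74.8), Krt8 above it in Villin-HA + CL4-TCR cells (40.6) and Vil1 below it on all. The helper T cell marker Cd4 was below the floor on all arrays, at 5.9, 9.4 and 9.1. The female-specific transcript Xist had signals of 2.5, 1339 and 5442.5 and the Y-linked Eif2s3y 1496, 746.9 and 13.4, so the sex of the mice is not separated from the group. The part of these differences in the values of the members was not tested.

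The first question is what sets HA-specific CD8 T cells of one HA population apart from those without HA. Most mitochondrial ribosomal protein genes had a somewhat higher signal in VILLIN-HA/CL4-TCR cells than in CL4-TCR cells: 60 of 76 had a difference above 0, against 47.4% of all measured genes, and the median log2 difference was 0.23, against -0.04 over all measured genes. Few differences were large. At 2-fold, 5 members were higher and 2 lower, 9.21% of the 76, while 14.1% of 11260 measured genes were counted, 7.43% as higher and 6.63% as lower. At 1.5-fold, 25 members were higher, 32.9% of them, and 3 were lower, against 16.4% and 17.3% of all measured genes. Among the 9014 genes that lay above the floor on all 3 arrays, as every member did, 46.9% had a difference above 0 and the median was -0.05. Of those genes 6.5% were higher and 6.96% lower at 2-fold (13.5% in all), and 15.7% and 18.2% at 1.5-fold.

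Probe sets of the same gene gave the only error that these data allow. In 29 members at least 2 probe sets each exceeded the floor on both of these arrays, and their log2 differences within a gene had a pooled SD of 0.44. This SD bears on single members and not on the median of the set. In 14 of these 29 all probe sets were above 0, in 5 all were below 0, and in 10 they went both ways. Probe sets lay more than 1 log2 unit apart in 4 members, from -0.97 to 0.80 in Mrps21, from -0.61 to 0.88 in Mrpl11, from -0.56 to 0.80 in Mrpl3 and from 0.05 to 1.07 in Mrpl15. In such bulk RNA a change in the share of cells of one type and a change in RNA per cell cannot be told apart.

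The 5 higher members were Mrps6, Mrpl27, Mrps18c, Mrpl32 and Mrpl45. Mrps6, a relative of the bacterial small subunit protein S6, had a signal of 1886 in VILLIN-HA/CL4-TCR cells and 574.8 in CL4-TCR cells, a difference of 3.28-fold. Its other probe set had 411.9 and 190.4, a log2 difference of 1.11 against 1.71 for the first. Both probe sets were thus past 2-fold. The extent of Mrps6 in RefSeq overlaps that of Slc5a3, a gene for a myo-inositol transporter, whose signal was 473.8 in VILLIN-HA/CL4-TCR cells and 210.9 in CL4-TCR cells. The brighter Mrps6 probe set is of the kind that can match several transcripts, and RNA of the overlapping genes cannot be told apart here.

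Mrpl27, related to the bacterial protein L27 that reaches towards the peptidyl transferase centre, had a signal of 1004 against 377.9 in CL4-TCR cells, 2.66-fold higher. Its second probe set was dim, with 62.0 in VILLIN-HA/CL4-TCR cells and 27.7, below the floor, in CL4-TCR cells. Both thus pointed the same way. The extent of Mrpl27 in RefSeq overlaps that of Eme1, a DNA repair gene. Eme1 had 63.6 in VILLIN-HA/CL4-TCR cells and 29.1, below the floor, in CL4-TCR cells. Mrps18c, one of several mitochondrial relatives of bacterial S18, had 907.4 against 427.2, which is 2.12-fold. Mrpl32, which the m-AAA protease of the inner membrane trims before it joins the ribosome, had 583.1 against 277.6, or 2.10-fold. Mrpl45, a mitochondrial addition that lies at the tunnel exit facing the inner membrane, had 292.5 against 143.8, or 2.03-fold. Of these, Mrps18c, Mrpl32 and Mrpl45 have 1 probe set each, so no second probe set bears on them, and the last 3 differences lie just past the 2-fold line.

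The 2 lower members were mitochondrial additions without bacterial relatives. Mrpl38, a protein of the central protuberance of the large subunit, had a signal of 101.1 in VILLIN-HA/CL4-TCR cells and 217.8 in CL4-TCR cells, 2.15-fold lower. All 3 of its probe sets were below 0, from -1.60 to -0.61 on the log2 scale. Mrps27, a small subunit protein with pentatricopeptide repeats, had 39.7 against 86.9, 2.19-fold lower, on a probe set close to the floor. Short of 2-fold, the next lowest were Mrps5, a relative of bacterial S5 (99.7 against 170.3, a log2 difference of -0.77), Mrps23 (-0.55), and Mrpl49 (-0.44).

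**Figure D1:**
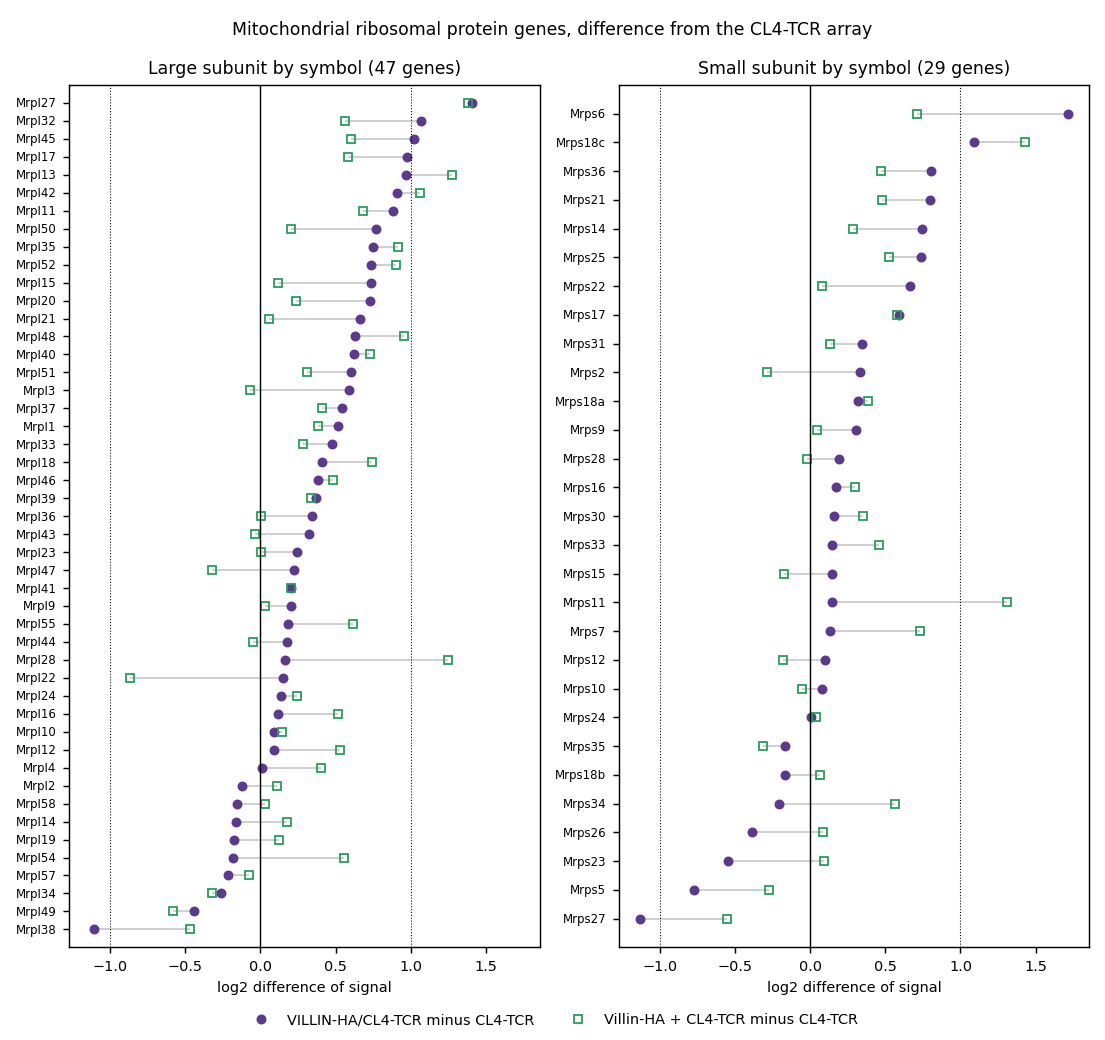
Log2 difference of signal from the CL4-TCR array for all 47 Mrpl genes (left) and 29 Mrps genes (right), by the chosen probe set, with filled circles for VILLIN-HA/CL4-TCR and open squares for Villin-HA + CL4-TCR; dotted lines mark 2-fold, and each pair of points shares the CL4-TCR array. In the first comparison 60 of the 76 circles lie right of 0 and 25 at or beyond 1.5-fold, while Mrpl38 and Mrps27 lie left of -1.

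The stretches before the start sites are shown for the members past 2-fold in this comparison, the 5 higher ones and Mrps27, which was lower, though not for Mrpl38, so that those that differed can be set side by side. They are the 250 bases upstream of the annotated start, from RefSeq on build GRCm38.p6, written 5′ to 3′ on the strand of the gene, at chr16:92058086-92058335 (plus strand), chr11:94653541-94653790 (plus strand), chr5:100798509-100798758 (plus strand), chr13:14613038-14613287 (minus strand), chr11:97315466-97315715 (plus strand) and chr13:99344536-99344785 (plus strand). Capitals mark matches to the letters searched.
Mrps6: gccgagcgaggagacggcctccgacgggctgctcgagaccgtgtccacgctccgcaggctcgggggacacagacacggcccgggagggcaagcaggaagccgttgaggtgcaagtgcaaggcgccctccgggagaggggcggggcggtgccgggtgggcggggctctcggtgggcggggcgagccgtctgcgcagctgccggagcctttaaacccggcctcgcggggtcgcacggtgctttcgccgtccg
Mrpl27: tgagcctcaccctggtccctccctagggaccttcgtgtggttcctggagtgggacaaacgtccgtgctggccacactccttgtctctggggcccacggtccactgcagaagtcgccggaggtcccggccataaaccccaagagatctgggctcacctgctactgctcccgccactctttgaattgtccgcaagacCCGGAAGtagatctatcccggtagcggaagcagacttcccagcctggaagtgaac
Mrps18c: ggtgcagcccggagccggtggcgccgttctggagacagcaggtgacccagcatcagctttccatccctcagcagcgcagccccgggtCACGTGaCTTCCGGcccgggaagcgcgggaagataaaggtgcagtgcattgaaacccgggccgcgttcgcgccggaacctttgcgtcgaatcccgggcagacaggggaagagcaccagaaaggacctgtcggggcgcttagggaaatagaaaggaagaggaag
Mrpl32: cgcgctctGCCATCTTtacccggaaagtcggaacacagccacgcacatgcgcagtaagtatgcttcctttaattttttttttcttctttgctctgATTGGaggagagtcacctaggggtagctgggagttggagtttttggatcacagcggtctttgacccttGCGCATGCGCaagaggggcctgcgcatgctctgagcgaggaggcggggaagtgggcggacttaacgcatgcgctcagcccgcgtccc
Mrpl45: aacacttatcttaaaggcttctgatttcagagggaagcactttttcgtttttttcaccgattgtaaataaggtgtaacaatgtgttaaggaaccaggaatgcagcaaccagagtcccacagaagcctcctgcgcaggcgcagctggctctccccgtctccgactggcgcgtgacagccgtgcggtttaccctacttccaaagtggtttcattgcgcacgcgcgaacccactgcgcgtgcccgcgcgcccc
Mrps27: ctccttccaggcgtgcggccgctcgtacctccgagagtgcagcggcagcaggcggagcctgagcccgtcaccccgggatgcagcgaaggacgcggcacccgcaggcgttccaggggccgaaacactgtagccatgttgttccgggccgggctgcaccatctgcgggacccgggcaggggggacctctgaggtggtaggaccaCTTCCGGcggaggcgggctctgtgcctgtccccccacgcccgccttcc

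Searched on both strands were the ETS site CCGGAAG, the E-box CACGTG bound by Myc and related factors, the palindromic NRF1 site, which stands in capitals nearest the start of Mrpl32, the YY1 site AAGATGGC and the CCAAT box CCAAT. Factors of the ETS family (GABP) and NRF1 are known regulators of nuclear genes for mitochondrial proteins. The Mrpl27 stretch holds an ETS match that begins 55 bases before the start, given as position -55. In the Mrps18c stretch an E-box at -163 stands next to an ETS match at -156, and the Mrpl32 stretch has an NRF1 match at -87, a CCAAT box at -155 and a YY1 match at -242. Mrps27, which differed in the opposite direction, has an ETS match at -48. None of these letters occurs in the Mrps6 and Mrpl45 stretches.

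Upstream sequence was found for 67 of the 76 members. ETS letters were present in 17 of them, 25.4%, against 10.2% of 17492 protein-coding genes in the same table. NRF1 letters were present in 3 (4.48%, against 1.21%) and YY1 letters in 4 (5.97%, against 1.77%). The E-box was present in 5 (7.46%, against 7.61%) and the CCAAT box in 24 (35.8%, against 39.5%). A match describes the letters and is not evidence of binding, and a gene with several annotated starts was counted once if any of them had a match.

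The other HA population, Villin-HA + CL4-TCR, was set against the same CL4-TCR array, so the comparisons share it. There 59 of 76 members had a difference above 0, against 53.0% of all measured genes, with a median log2 difference of 0.26 against 0.06. At 2-fold 6 members were higher and none was lower, 7.89% of the 76, in a comparison where 21.4% of 12196 measured genes were counted, 11.9% as higher and 9.53% as lower. At 1.5-fold 16 members were higher, or 21.1%, and 1 was lower, Mrpl22, against 23.6% and 20.5% of all measured genes. Of the 9014 genes above the floor on all arrays, 47.0% had a difference above 0, with 9.82% higher and 11.3% lower at 2-fold (21.1% in all) and 20.3% and 24.5% at 1.5-fold. The members thus passed 1.5-fold upwards about as often as other genes, and 1.32% of them did so downwards. After scaling all arrays to an equal median signal, the median of the members became 0.05 and that of all measured genes -0.14, and 40 of 76 members, 52.6%, were above 0 against 43.1% of all measured genes. The array medians, 35.3 here and 30.6 in CL4-TCR cells, lie near the floor, so this scaling follows dim probe sets. Scaling to the cytosolic ribosomal proteins gave nearly the same values. The median was then 0.067 for the members and -0.125 for all measured genes, and 42 of 76 members, 55.3%, were above 0. Quantile normalization instead gave medians of 0.27 for the members and 0.02 for all measured genes, with 60 of 76 members above 0. The distance of the members' median from that of genes above the floor on both arrays was 0.30 as deposited, 0.28 after scaling to an equal median and 0.29 after quantile normalization.

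Mrps18c and Mrpl27 were the 2 highest members on this array. Mrps18c had a signal of 1149 against 427.2 in CL4-TCR cells, 2.69-fold higher, and Mrpl27 had 983.8 against 377.9, 2.60-fold higher, with 79.5 against 27.7 on its dim probe set. Mrpl13, a relative of the bacterial rRNA-binding protein L13, had 1118 against 461.9, or 2.42-fold. Of the other 3 probe sets of Mrpl13, 2 had log2 differences of 1.00 and 0.78 and the third -0.12, with signals of 48.8 and 53.0. Mrpl42, a mitochondrial addition to the large subunit, had 848.8 against 406.3, or 2.09-fold, and its second probe set lay below the floor on all arrays.

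The remaining 2 of the 6 do not hold across their probe sets. Mrpl28, related to bacterial L28, had a signal of 841.4 against 354.3 in CL4-TCR cells by the chosen probe set, 2.37-fold higher, and 301.1 against 313.4 and 433.1 against 406.1 on the others. Only the chosen one of the 3 is thus past 2-fold, and leaving out probe sets of the kind that may match more than 1 transcript, the log2 difference of Mrpl28 was -0.06. Mrps11, a relative of bacterial S11, had 136.9 against 55.3, 2.48-fold higher, while its second probe set had 11.7 against 59.1. Below 0 were Mrpl22, whose bacterial relative lines the exit tunnel (359.9 against 655.6, a log2 difference of -0.87), Mrpl49 (-0.58), Mrps27 (-0.55), Mrpl38 (-0.47) and Mrpl34 (-0.32), and none of these reached 2-fold by the chosen probe set. A second Mrpl38 probe set was lower past 2-fold, with 68.7 in Villin-HA + CL4-TCR cells and 205.7 in CL4-TCR cells.

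Disagreement between probe sets was wider here. The pooled SD within 30 members was 0.57 on the log2 scale, 19 of the 30 had probe sets in both directions, and in 13 the probe sets spanned more than 1 log2 unit. It was wider over all genes too: their pooled SD within a gene was 0.65 here and 0.43 in the first comparison. Mrps15, related to bacterial S15, had probe sets from -1.77 to 0.72, Mrpl15, related to bacterial L15, from -1.18 to 0.90, and Mrpl48, a protein of the central protuberance, from -0.01 to 1.67. The other 10 were Mrpl11, Mrpl13, Mrpl17, Mrpl19, Mrpl28, Mrpl38, Mrpl52, Mrps5, Mrps21 and Mrps23. The low ends of the ranges of Mrps15, Mrpl15 and Mrpl48 came from dim probe sets, with signals of 40.1, 51.2 and 34.2 in Villin-HA + CL4-TCR cells and 137.2, 116.1 and 34.5 in CL4-TCR cells. The array with this wider disagreement also had the lowest Gapdh ratio, the lowest beta-actin ratio by a small margin, and the skeletal muscle transcripts given above. The part of these in the disagreement was not tested.

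**Figure D2:**
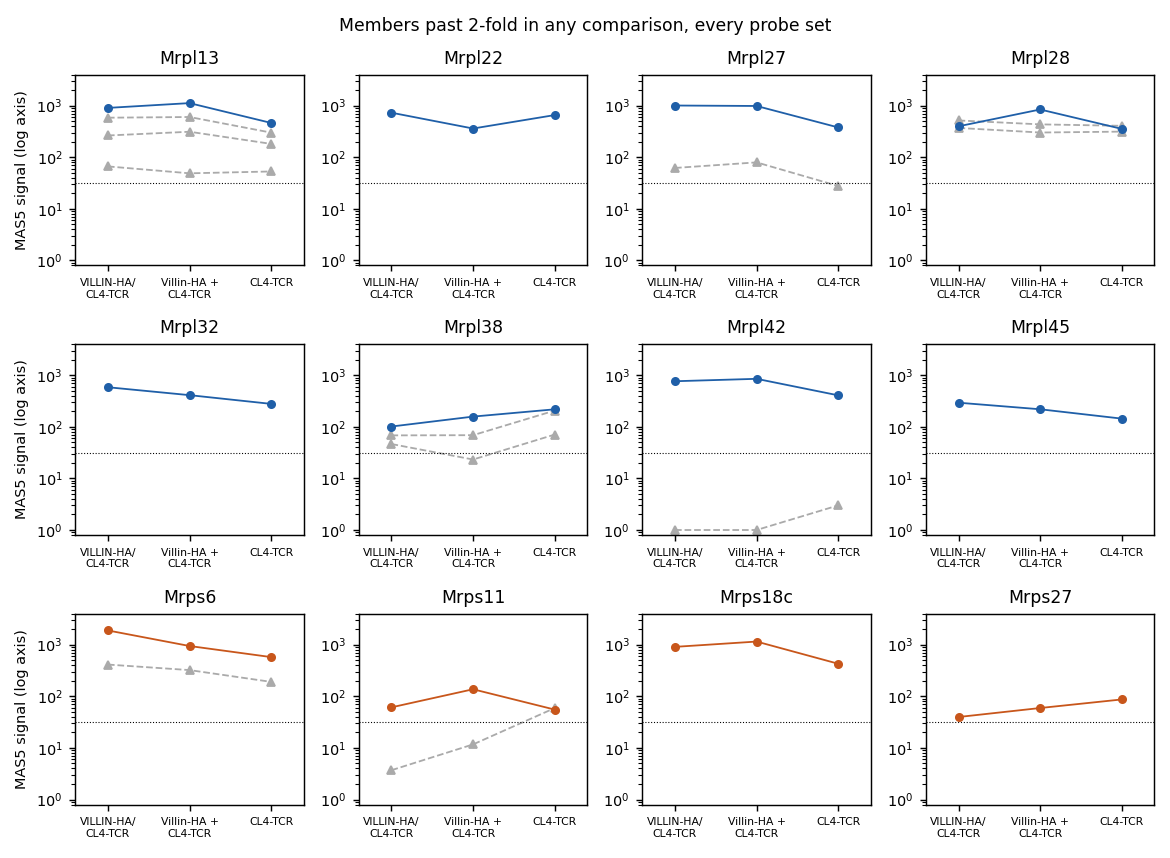
MAS5 signal (log axis) of the 12 members past 2-fold in any comparison on the VILLIN-HA/CL4-TCR, Villin-HA + CL4-TCR and CL4-TCR arrays; solid lines with circles are the chosen probe sets (blue for the large and orange for the small subunit), dashed grey lines with triangles all other probe sets of the gene, the dotted line is the floor of 31.7, and signals under 1 are drawn at 1. Lines join the values of 1 probe set and imply no order of the groups. The chosen probe sets of Mrpl27, Mrps18c, Mrpl13 and Mrpl42 stand higher on both HA arrays than on the third array, and those of Mrpl28 and Mrps11 peak on the middle array where the grey lines do not.

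Between the HA populations few members passed 2-fold, and about as many were higher as lower. Set against Villin-HA + CL4-TCR cells, 40 of 76 members were higher in VILLIN-HA/CL4-TCR cells, with a median log2 difference of 0.02, against 46.3% of all measured genes and a median of -0.06. At 2-fold 2 members were higher and 2 lower in VILLIN-HA/CL4-TCR cells, 5.26% of the 76, where 15.1% of 12081 measured genes were counted, 6.13% as higher and 8.95% as lower. At 1.5-fold 7 were higher and 7 lower, 9.21% each way, against 16.4% and 20.8% of all measured genes. Among the 9014 genes above the floor on all arrays, 52.5% were above 0, 6.93% were higher and 7.37% lower at 2-fold (14.3% in all), and 19.0% and 17.4% at 1.5-fold. Scaling to the same median moved the median of the members to 0.28 and that of all measured genes to 0.19, so the level of the set relative to 0 depends on the scaling here. Its distance from the median of genes above the floor on both arrays was 0.00 as deposited and 0.02 after that scaling.

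Mrpl22 had a signal of 728.9 in VILLIN-HA/CL4-TCR cells against 359.9 in Villin-HA + CL4-TCR cells, 2.03-fold higher on its only probe set. Mrps6 had 1886 against 942.5, at the 2-fold line with a log2 difference of 1.00, and 411.9 against 321.9 on its other probe set. The overlapping Slc5a3 had 473.8 against 166.5, a log2 difference of 1.51. The lower members were Mrps11, with 61.1 against 136.9, and Mrpl28, with 397.4 against 841.4, whose other probe sets had log2 differences of 0.25 and 0.29. Short of 2-fold, the lowest were Mrps34 (-0.77), a mitochondrial addition that the small subunit needs for its stability, Mrpl54 (-0.74) and Mrps23 (-0.64), and the highest Mrpl3 (0.65), Mrpl15 (0.62) and Mrps2 (0.61). Probe sets spanned more than 1 log2 unit in 6 members, most widely in Mrps23, from -1.87 to 0.08, and Mrps15, from -0.05 to 1.5, and also in Mrpl3, Mrpl15, Mrpl28 and Mrps5.

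Set side by side, the large subunit had higher medians than the small subunit in both comparisons with CL4-TCR. No replicate error is at hand for this difference, and it was not tested. Medians in VILLIN-HA/CL4-TCR cells were 0.34 for 47 Mrpl genes and 0.16 for 29 Mrps genes, and in Villin-HA + CL4-TCR cells 0.28 and 0.13. Above 0 were 38 of 47 Mrpl and 22 of 29 Mrps genes in the first comparison and 38 and 21 in the second. At 2-fold, 3 Mrpl genes were higher and 1 lower in the first, against 2 and 1 Mrps genes, and in the second 4 Mrpl and 2 Mrps genes were higher. At 1.5-fold, 17 Mrpl genes (36.2%) and 8 Mrps genes (27.6%) were higher in the first comparison, and 12 (25.5%) and 4 (13.8%) in the second. Between the HA arrays the medians of large and small subunit were 0.03 and 0.01. In the first comparison the order depends on the probe sets chosen: without those that can match several transcripts the medians were 0.29 for the large and 0.32 for the small subunit.

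**Figure D3:**
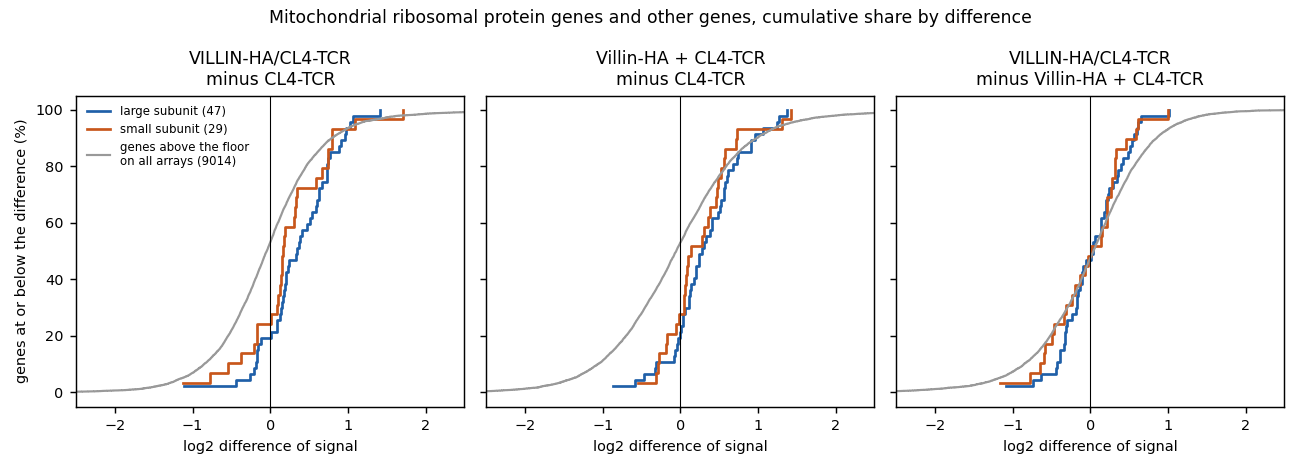
Cumulative share of genes (vertical axis, percent) by log2 difference of signal (horizontal axis) for the 47 large subunit genes, the 29 small subunit genes and the 9014 named genes above the floor on all 3 arrays, one panel per comparison; a few genes beyond 2.5 are outside the axis. In both comparisons with CL4-TCR the subunit curves run right of the grey curve around 0. At a difference of 1 they lie close to it. Between the HA arrays the curves lie close together, with medians of 0.03, 0.01 and 0.04.

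Split by origin, 47 members belong to families shared with bacterial ribosomes and 27 are mitochondrial additions. The assignment is background knowledge from structures of the mammalian mitochondrial ribosome, with the subunit taken from the symbol, and it leaves out Mrpl58, of the release factor family, and Mrps36. Of the 47 shared members 41 were above 0 in VILLIN-HA/CL4-TCR cells, with a median of 0.22, and 18 of the 27 additions, with a median of 0.33. The 10 small subunit additions were evenly divided, 5 above and 5 below 0 with a median of -0.01, whereas 13 of 17 large subunit additions were above 0 with a median of 0.39. In Villin-HA + CL4-TCR cells 8 of the same 10 small subunit additions were above 0, with a median of 0.11, and the shared members had a median of 0.24. These groups are small and no test of their differences was made.

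The symbols do not give the subunit in every case. Mrps18a and Mrps30 lie on the large subunit in the structures in spite of their names, and Mrps36 is now known as a subunit of the 2-oxoglutarate dehydrogenase complex and not of the ribosome. Mrps36 had signals of 388.3, 309.2 and 222.8 on the VILLIN-HA/CL4-TCR, Villin-HA + CL4-TCR and CL4-TCR arrays, Mrps18a had 323.0, 338.3 and 259.3, and Mrps30 had 405.8, 463.5 and 363.0. With these 3 placed by structure, the medians were 0.33 for the large and 0.15 for the small subunit in VILLIN-HA/CL4-TCR cells, and 0.31 and 0.09 in Villin-HA + CL4-TCR cells. Of 4 proteins of the ribosome with other names, whose median was 0.32 in VILLIN-HA/CL4-TCR cells and -0.06 in Villin-HA + CL4-TCR cells against CL4-TCR cells, Dap3 and Chchd1 of the small subunit stayed under 2-fold in all 3 comparisons. Ptcd3, a small subunit protein with pentatricopeptide repeats, had 478.9, 136.8 and 374.7, lower by a log2 difference of -1.45 in Villin-HA + CL4-TCR cells than in CL4-TCR cells. Gadd45gip1, of the large subunit, had 42.2, 149.8 and 73.1, with log2 differences of -0.79 and 1.03 from CL4-TCR.

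**Figure D4:**
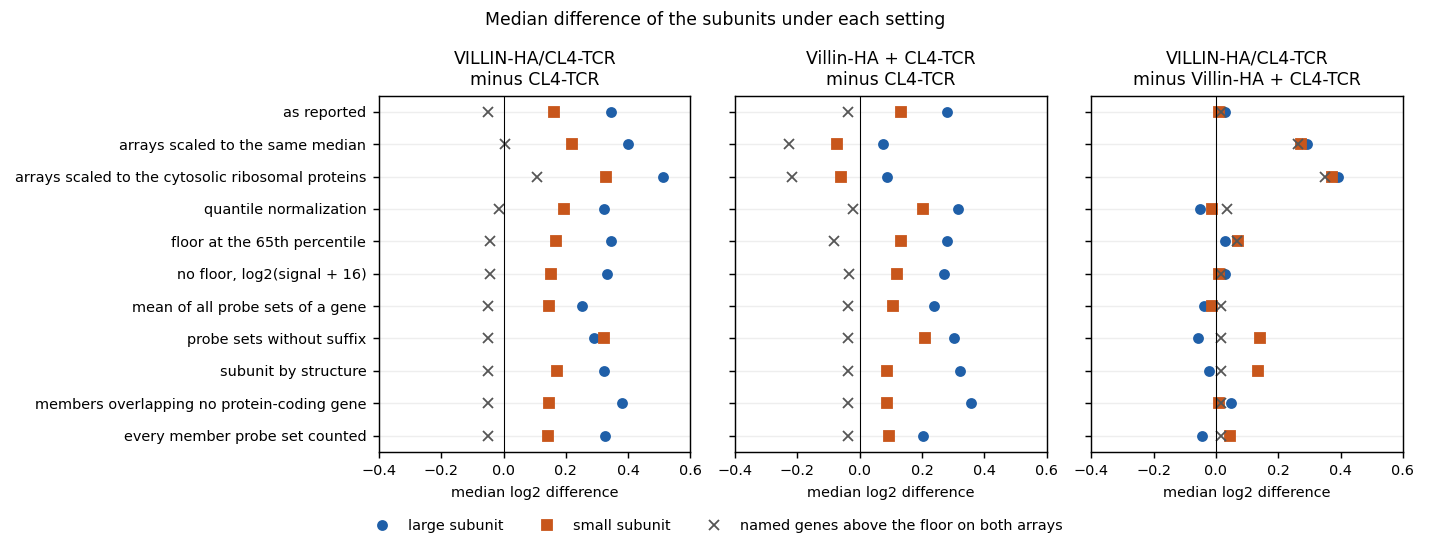
Median log2 difference of signal (horizontal axis) of the large subunit (circles), the small subunit (squares) and named genes above the floor on both arrays (crosses) under each way of processing (rows), one panel per comparison. Scaling moves all 3 medians together, as in the middle panel, where the small subunit stands at -0.07 and the crosses at -0.23 with arrays scaled to the same median, and the distance between members and other genes moves less.

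Other genes of mitochondrial gene expression did not have the same medians. Of 12 translation factors found, none was counted in VILLIN-HA/CL4-TCR cells against CL4-TCR (median -0.06), and 1 was lower in Villin-HA + CL4-TCR cells (median -0.01), Mtif3, an initiation factor, with 89.3 against 238.6. Of 18 measured mitochondrial aminoacyl-tRNA synthetase genes, which include the amidotransferase for glutamine, 2 were higher and 1 lower in VILLIN-HA/CL4-TCR cells (median -0.06). These were Fars2, for phenylalanine, with 398.6 against 173.8, Nars2, for asparagine, with 577.9 against 269.1, and Ears2, for glutamate, with 49.7 against 132.7. In Villin-HA + CL4-TCR cells 1 was higher, Fars2 (2.08-fold), and 2 lower, Ears2 (below the floor, a log2 difference of at most -2.07) and Qrsl1 (log2 difference -1.26), with a median of -0.08. In each of these comparisons 16.7% of the synthetase genes were counted, against 14.1% and 21.4% of all measured genes.

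Assembly factors of the mitochondrial ribosome had 1 of 25 measured genes higher and 2 lower in VILLIN-HA/CL4-TCR cells, with a median of 0.04. Malsu1, which keeps the subunits apart during assembly, was 2.07-fold higher, and Mtg2, a GTPase, and Mrm1, an rRNA methyltransferase, had log2 differences of -1.14 and -1.06. The Villin-HA + CL4-TCR array had 1 higher, Oxa1l, the inner membrane insertase to which the ribosome docks (2.18-fold), and 5 lower, with a median of -0.23. The lowest were Eral1, a GTPase that binds the small subunit rRNA (-1.46), the helicase gene Dhx30 (-1.30) and Mettl17 (-1.17). Of 16 genes of mitochondrial transcription and biogenesis, Slirp, which stabilises mitochondrial mRNA, was higher on both HA arrays than in CL4-TCR cells, with 836.6 and 702.6 against 319.7. Ppargc1b, a coactivator of mitochondrial genes, was lower on both, with 180.6 and 114.3 against 395.8, and Polrmt, the mitochondrial RNA polymerase, and Pprc1, a coactivator, were lower in Villin-HA + CL4-TCR cells by log2 differences of -1.63 and -2.02.

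Against CL4-TCR cells, protein import genes had medians near those of the mitochondrial ribosomal proteins. They were 0.31 in VILLIN-HA/CL4-TCR cells with 18 of 22 above 0, and 0.22 in Villin-HA + CL4-TCR cells with 14 of 22. The chaperonin gene Hspd1 was counted as higher on the first (2.15-fold), and on the second Timm17a, a subunit of the inner membrane translocase, was at the 2-fold line with 612.6 against 306.1, while Timm9, an intermembrane space chaperone, was lower with 33.9 against 204.0. Cytosolic ribosomal protein genes, 46 measured, had medians of -0.01 and 0.18 in the same comparisons, and 22 and 38 of them were above 0. In VILLIN-HA/CL4-TCR cells 1 was higher, Rps27l, a relative of Rps27 (2.51-fold), and 1 lower, Rps27 (log2 difference -2.22). The Rps27 probe set was dim, with 37.9, close to the floor, against 176.3. In Villin-HA + CL4-TCR cells only Rpl12 was counted (-1.65), with 393.9 against 1234.7. Most cytosolic ribosomal protein genes had far higher signals than these 2. Between the HA arrays their median was -0.21, that of the mitochondrial ribosomal proteins 0.02 and that of the protein import genes 0.36.

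**Figure D5:**
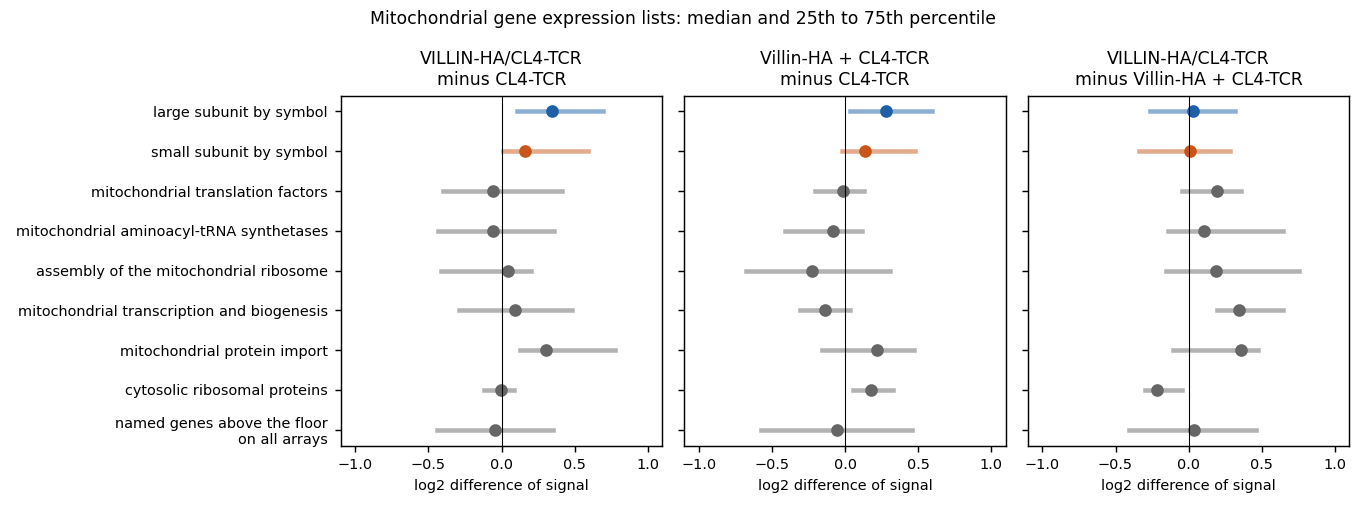
Median (point) and 25th to 75th percentile (bar) of the log2 difference of signal for the lists named on the axis, one panel per comparison; the 4 ribosome proteins with other names and the cell type markers are not plotted. In VILLIN-HA/CL4-TCR cells the large subunit (0.34), small subunit (0.16) and protein import (0.31) have medians above 0, and the other lists plotted lie between -0.06 and 0.09.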

How the data were processed

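RNA of mouse CD8 T cells, 6 µg per sample, was labelled with biotin and measured on 1 one-colour Affymetrix-type array per group, per the labels' protocols. The deposited values are MAS5 intensity values on a linear scale, per the submitters' processing notes, which name no version. They run from 0 to 19538 with a 2% trimmed mean of 150 on every array, which hides any shift common to nearly all transcripts. Of 45101 probe sets, 34958 carry 1 symbol, 932 several and 9211 none, and 34754 of the first were updated through Entrez identifiers to RefSeq (GRCm38.p6), which renamed no member.

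From these values the floor, the log2 differences and the counts were computed with Python 3.11.15, numpy 2.4.6 and pandas 2.3.3. With 1 array per group no test was possible. The counting was tested on simulated data. Its planted differences were all well past 2-fold and its noise was lower than that between probe sets here. It therefore does not bear on differences near 2-fold. Members named are those past 2-fold, the 5 highest and 5 lowest of each comparison, those whose subunit and symbol disagree and those with probe sets over 1 log2 unit apart. From the other lists, up to 3 counted genes each way are named. Promoters are printed for the members past 2-fold in the first comparison that the RefSeq table holds, a choice made after the values were seen. The members and lists were chosen with earlier results of these data known. Alternatives concerned the floor, scaling, probe sets, fold, symbols and subunits.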

Additional observations from a re-analysis of the deposited data

How the results depend on the processing

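No paired analysis was possible because each group has 1 array, and leaving out a replicate was not run for the same reason. Updated symbols gave the same members. Scaling moved the members' medians, while their distance from genes above the floor on both arrays was 0.282 as deposited and 0.285 with equal array medians in VILLIN-HA/CL4-TCR minus CL4-TCR. The alternatives that left out members overlapping another protein-coding gene, and that counted every member probe set, were chosen after seeing the data. The cause of the moves below was not tested, apart from those that follow from a lower fold or from other numbers of genes.

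For VILLIN-HA/CL4-TCR minus CL4-TCR (5 members higher, 2 lower), the lower count was 1 with the floor at the 65th percentile and 0 with log2(signal + 16), with quantile normalization and with scaling to the cytosolic ribosomal proteins. The last gave 9 higher and medians of 0.40 for all members, 0.51 for the large and 0.33 for the small subunit. This scaling made the median signal over all probe sets of the cytosolic ribosomal proteins equal, dim ones included. By the chosen probe sets the median log2 difference of these genes was -0.01, so the move of the members does not give a change of these genes. Probe sets without suffix gave a small subunit median of 0.32 and a large minus small difference of -0.031 in place of 0.18. Higher were 25 at 1.5-fold, 3 of the 57 members without an overlapping gene, and 9 of 138 probe sets, of which 4 were lower and 96 above 0.

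For Villin-HA + CL4-TCR minus CL4-TCR (6 higher, none lower), scaling to the same median gave 1 lower and medians of 0.054 for the members, 0.074 for the large and -0.073 for the small subunit. Scaling to the cytosolic ribosomal proteins gave 1 lower and 0.067, 0.087 and -0.06. The mean of all probe sets gave 2 higher and 1 lower, and probe sets without suffix 2 lower, with Mrpl28 at -0.058. At 1.5-fold 16 were higher and 1 lower, and with subunits by structure and the 4 ribosome proteins with other names 1 was lower, Ptcd3. Without overlapping genes the large minus small difference was 0.27 in place of 0.15. Of 138 probe sets 12 were higher, 4 lower and 93 above 0.

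For VILLIN-HA/CL4-TCR set against Villin-HA + CL4-TCR (2 higher, 2 lower), scaling to the same median gave 0 lower and medians of 0.28, 0.29 and 0.27 for members, large and small subunit. Scaling to the cytosolic ribosomal proteins gave 0 lower, 62 of 76 above 0 and medians of 0.38, 0.39 and 0.37. The lower count was 1 with the floor at the 65th percentile, and log2(signal + 16) gave 0 higher and 1 lower. Quantile normalization gave 0 higher, and the mean of all probe sets 1 higher and 0 lower. Probe sets without suffix gave a small subunit median of 0.14, a large minus small difference of -0.20 in place of 0.02, and Mrpl28 at 0.29, and with subunits by structure, which here adds the 4 ribosome proteins with other names and leaves out Mrps36 (79 genes), that median and that difference were 0.13 and -0.16. With the members alone placed by structure they were 0.07 and -0.07. At 1.5-fold 7 were higher and 7 lower, and 1 was higher without overlapping genes. Of 138 probe sets 4 were higher, 4 lower and 67 above 0, with a large minus small difference of -0.09.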

Other observations

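Medians of the log2 difference for members with and without each motif went different ways between motifs and comparisons. For the ETS letters (17 members with, 50 without) they were 0.41 with and 0.23 without in VILLIN-HA/CL4-TCR cells against CL4-TCR, 0.30 and 0.26 in Villin-HA + CL4-TCR cells against CL4-TCR, and -0.07 and 0.13 between the HA populations. The CCAAT box (24 and 43 members) gave 0.36 with and 0.20 without, then 0.32 and 0.24, then 0.14 and -0.03 in the same order of comparisons. With the E-box (5 and 62 members) they were 0.54 and 0.27, then 0.24 and 0.28, then 0.14 and 0.04. YY1 letters (4 and 63 members) gave 0.24 and 0.32, then 0.28 and 0.28, then 0.31 and 0.03, and NRF1 letters (3 and 64 members) 0.37 and 0.31, then 0.33 and 0.26, then 0.17 and 0.02. These are descriptions of single arrays, and no test was made.

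The RefSeq extents of 19 of the 76 members overlap another protein-coding gene, and some of these partners were past 2-fold where the member was not. Tcp1, a subunit of the cytosolic chaperonin that overlaps Mrpl18, had a signal of 4416 in Villin-HA + CL4-TCR cells against 1930 in CL4-TCR cells, and Mrpl18 had 891.3 against 533.0. Gga3, which overlaps Mrps7, had 173.4 against 726.5, and Mrps7 had 464.7 against 279.7, so this pair went opposite ways. Eme1, a DNA repair gene that overlaps Mrpl27, was counted as higher with Mrpl27 in both comparisons with CL4-TCR. It had 63.6 in VILLIN-HA/CL4-TCR and 104.5 in Villin-HA + CL4-TCR cells against 29.1 in CL4-TCR cells, below the floor. Slc5a3, which overlaps Mrps6, was counted as higher with Mrps6 in VILLIN-HA/CL4-TCR cells against CL4-TCR, with a log2 difference of 1.17.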
